A study of Mus musculus with 7 samples.

Results

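Serpins are a superfamily of proteins that share one fold, and most of its members inactivate serine proteases. The genes of this family were read from RNA-Seq of 7 tissues of wild-type C57BL/6 mice (substrain C57BL/6N) that were on NCD, the control diet, and 36 weeks old. A gene was counted as a member when its name in the deposited table was Serpin followed by a clade letter from a to i, a number and, where present, a further letter. This rule found 63 names on 93 loci, out of 50354 names in the table. Of the 63, 61 were analysed. Serpina3k and Serpina3m share 1 locus whose status was FAIL in the 6 comparisons that involve liver, and they were left out of all counts. Angiotensinogen (Agt) is a serpin by sequence but does not carry the name, so it is not a member.

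The tissues, with 1 library each, were liver, kidney, skeletal muscle, cortex and the visceral (VAT), subcutaneous (SCAT) and interscapular brown (BAT) adipose tissues. All values are FPKM, fragments scaled for transcript length and library size, as the authors deposited them. No fragment counts accompany them, so the depth of the libraries is unknown and no interval, standard deviation or p-value could be given for any value below. Whether a library was made from 1 animal or a pool is not given in the sources used here. Differences between tissues are also differences between single libraries, and in whole tissue, fewer cells of a type and less RNA per cell cannot be told apart.

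An inhibitory serpin presents a reactive centre loop as bait. When a protease cuts the loop, the serpin snaps into a more stable shape and carries the protease with it, which traps the enzyme irreversibly. Most members of clade A and of the small clades C, D, E, F and G are secreted, and hepatocytes release many of them into plasma, where they restrain coagulation, fibrinolysis, complement and leukocyte proteases. Clade B serpins mostly stay inside cells and protect them from proteases of granules and lysosomes. Some members have lost the inhibitory activity and carry hormones or, in the case of Serpinh1, assist the folding of collagen.

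Mice carry several copies of the gene for alpha-1 antitrypsin, the plasma inhibitor of neutrophil elastase, and in the annotation these copies, Serpina1a to Serpina1e, lie side by side on chromosome 12 with Serpina1f. Sequences before their starts are shown here. The coding sequences, compared after them, bear on how far the values of the single copies can be told apart. RefSeq promoters (GRCm38.p6, 250 bases before to 50 bases after the start) were found for 53 of the 63 members. In the lines below, which read 5′ to 3′ on the minus strand, the capitals mark the motif GTTAAT, the core of the site that the hepatocyte factor HNF1 binds. The stretch before the start of Serpina1a (chr12:103863625-103863680) has the same 56 bases in Serpina1b (chr12:103738200-103738255), Serpina1c (chr12:103904962-103905017) and Serpina1e (chr12:103956960-103957015). Serpina1d (chr12:103773634-103773689) differs from them at 1 base, C1T, counted from the 5′ end of the stretch with the base of Serpina1a first.
Serpina1a: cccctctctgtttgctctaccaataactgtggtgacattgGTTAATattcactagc
Serpina1d: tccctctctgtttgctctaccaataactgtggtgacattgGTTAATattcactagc
Serpina1f: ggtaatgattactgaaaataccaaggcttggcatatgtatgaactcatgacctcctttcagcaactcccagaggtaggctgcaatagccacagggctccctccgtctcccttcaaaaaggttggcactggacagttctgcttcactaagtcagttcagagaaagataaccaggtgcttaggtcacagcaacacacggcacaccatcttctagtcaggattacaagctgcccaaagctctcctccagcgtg
The line for Serpina1f gives all 250 bases before its start (chr12:103695530-103695779, minus strand), in which the motif does not occur. Over the 300 bases of the promoters, Serpina1a to Serpina1e were 76.3% to 93.0% identical in their 10 pairs, whereas Serpina1f was 48.0% to 50.7% identical to them. The pairs with Serpina1e had at most 81.3% and the others at least 88.3%. GTTAAT begins at position -78 in Serpina1e and between -27 and -16 in the other copies, so its window is shifted against theirs. The coding sequences of Serpina1a to Serpina1e were 96.3% to 98.5% identical, and that of Serpina1f was 58.3% to 59.1% identical to them.

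GTTAAT, searched on both strands, occurred in the promoters of 11 of the 53 members (20.8%), against 8.24% of all 27025 genes with a promoter entry. It occurred in 5 of the 5 copies Serpina1a to Serpina1e, where its first base lay between position -78 and position -16 from the start. In these copies the motif lies in the near-identical stretch shown above, so the 11 members include this stretch 5 times. The other members with the motif were Serpina3c, Serpina7, Serpinb3b, Serpinb3d, Serpinb8 and Serpini2. TATAAA occurred in 15 of 53 members (28.3%), against 15.7% of all genes. The full palindromic HNF1 site, which contains GTTAAT, occurred in 0 of the 53 promoters and in 0.0111% of all. The forkhead motif TGTTTAC occurred in 0 of 53 and 4.05% of all, and the HNF4 motif CAAAGTCCA in 0 of 53 and 0.555% of all, again on both strands. These counts describe the letters of the windows and not the binding of a factor.

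Liver had the most enriched serpins of the 7 tissues. Enrichment in a tissue required a level of 1 FPKM or more and a log2(FPKM + 0.1) that exceeded the value of each other measured tissue by 2 or more, that is 4-fold. By this rule 14 of the 61 serpins (23%) were enriched in liver, where 2.37% of the 21341 protein-coding names were. The 14 names stand on 13 loci, because Serpina9 and Serpina11 share 1. VAT had 3 enriched serpins (protein-coding names: 0.848%), cortex 1 (5.74%) and skeletal muscle 1 (2.37%). Kidney, SCAT and BAT had 0 (1.74%, 1.35% and 0.529%). Over all tissues, 19 serpins (31.1%) were enriched, against 14.9% of protein-coding names.

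At least 1 FPKM in any tissue was reached by 33 of the 61 serpins (54.1%), a smaller share than the 69.9% of protein-coding names. Of the 33, 16 were highest in liver (48.5%; protein-coding names: 15.5%), 7 in VAT (21.2%; 5.35%) and 4 in SCAT (12.1%; 8.37%). The others were highest in cortex (2, 6.06%; 21.1%), muscle (2, 6.06%; 24%), kidney (1, 3.03%; 10.6%) and BAT (1, 3.03%; 15.1%). A level of at least 1 FPKM was reached by 25 serpins in VAT, 24 in liver, 19 in SCAT, 15 in kidney, 14 in BAT, 12 in muscle and 9 in cortex. The same counts by tissue were not made over all protein-coding names, so whether this order is particular to serpins was not tested. The counts of VAT include Serpina1b, Serpina1c and Serpina1d, whose liver values are missing, so these 3 could not be counted for liver. For the same reason, Serpina1b and Serpina1c among the 7 highest in VAT, and Serpina1d as the 1 highest in kidney, were not compared with liver. The 6 members that reached 1 FPKM in all 7 tissues were Serpinb1a, Serpinb6a, Serpinb8, Serpinc1, Serpine2 and Serpine3.

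**Figure D1:**
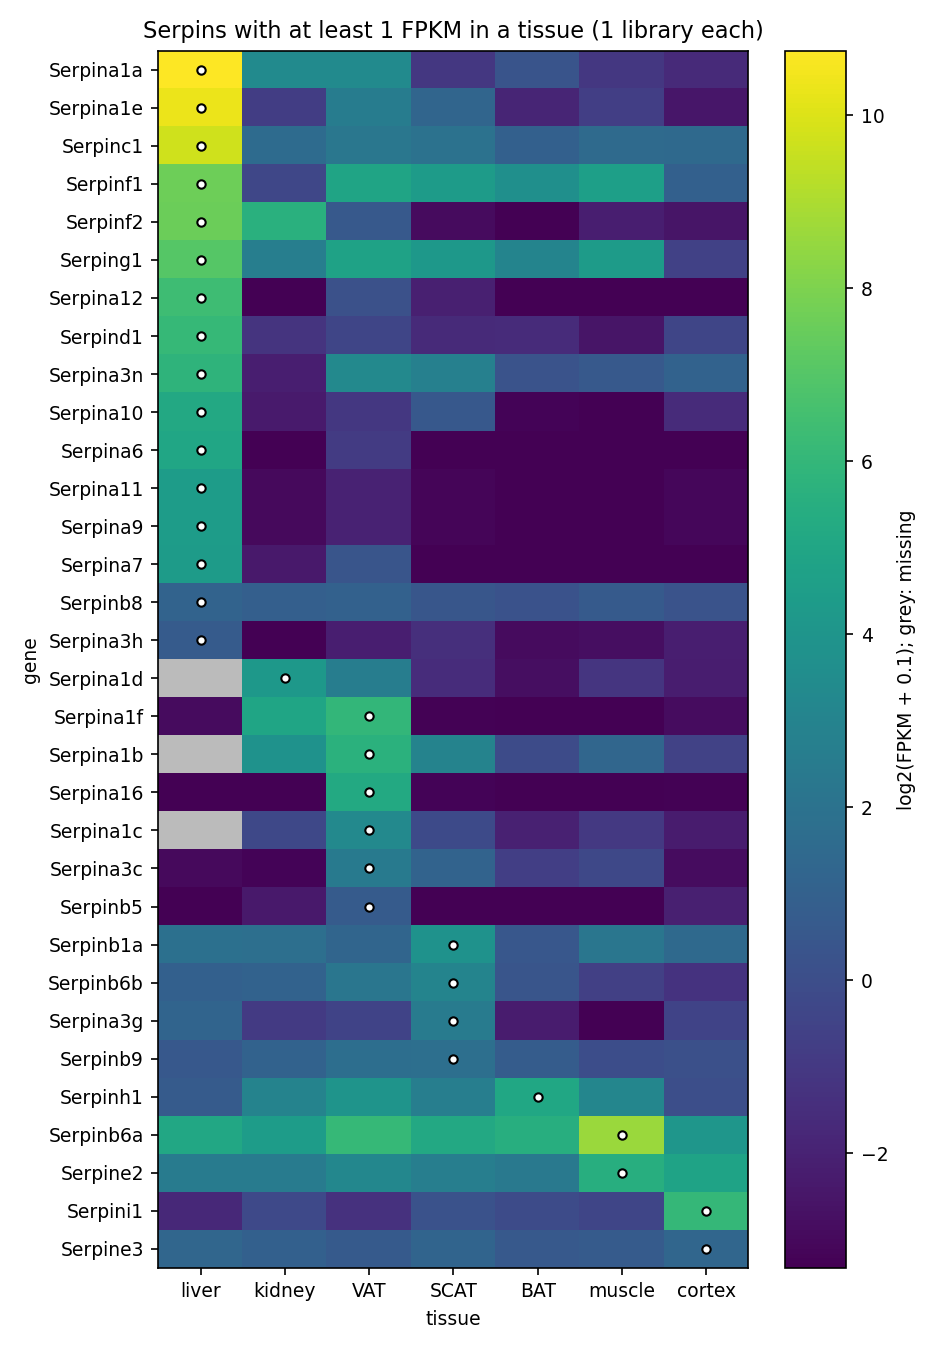
Level of 32 of the 33 serpins with at least 1 FPKM in any tissue (rows) in the 7 tissues (columns, 1 library each), as log2(FPKM + 0.1) on the colour scale. White points mark the highest tissue of each gene and grey fields a missing value. The 16 genes at the top are highest in liver, and most of them are dark in the other columns, while Serpinb6a and Serpine2 are visible in every tissue.

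The libraries were checked against markers of their labels. The kidney tubule, neuron and astrocyte, and brown adipocyte lists were enriched in kidney (4 of 4), cortex (4 of 4) and BAT (2 of 2), and 5 of 6 hepatocyte markers in liver, where Alb has no value. For muscle, Ckm and Tnnt3 were enriched, Acta1 was not analysed and Myh4 has no value there. The 4 adipocyte markers were at 51.6 FPKM (Lep) or more in VAT and at 26.6 (Lep) or more in SCAT, but 0 of 4 were enriched in either. In muscle they lay between 3.65 (Lep) and 24.7 FPKM (Cidec). VAT also contained markers of the epididymis, with 1386 FPKM of Crisp1, whose locus also carries Crisp3, 1119 of Lcn5 and 134 of Adam7. However, Lcn8 (0.0386 FPKM) and Rnase10 (0) of the same list were not raised. SCAT contained markers of lymphocytes (4 of 4 enriched there) and of pancreatic acinar cells (4 of 5). BAT contained markers of skeletal muscle, with 166 FPKM of Ckm, 307 of Tnnt3, whose locus also carries Lsp1, and 87.5 of Myh4, whose locus also carries Myh8 and which was called enriched in BAT without its muscle value. In muscle, Ckm had 8592 FPKM and Tnnt3 9815. The part of the cells and tissues with these markers in the serpin values was not tested.

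The inhibitors of plasma proteases were led by the alpha-1 antitrypsin copies and antithrombin. Of the 13 members with this role, 11 were analysed, all 11 reached 1 FPKM in any tissue and 7 were enriched in liver (protein-coding names: 69.9% and 2.37%). Serpina1a and Serpina1e have a locus on each strand, and the one opposite to the annotation was higher and was used. Serpina1a (gene at chr12:103853589-103863562 in GRCm38, minus strand) had 1717 FPKM in liver at that locus, 10.4 in kidney, 10.3 in VAT, 1.16 in BAT, 0.395 in SCAT, 0.385 in muscle and 0.224 in cortex. Serpina1e (gene at chr12:103946931-103958975) had 1301 FPKM in liver, 6.00 in VAT, 2.32 in SCAT, 0.504 in muscle, 0.494 in kidney, 0.175 in BAT and 0.0826 in cortex. The log2 difference between liver and the next tissue was 7.35 for Serpina1a and 7.74 for Serpina1e. On the annotated strand they had 561 and 846 FPKM in liver. Serpinc1 (chr1:160978585-161005863), which encodes antithrombin, the inhibitor of thrombin and factor Xa that heparin activates, had 853 FPKM in liver, 4.64 in VAT, 3.86 in SCAT, 2.96 in kidney, 2.82 in muscle, 2.73 in cortex and 1.86 in BAT, a log2 difference of 7.49. It was thus below both copies by the loci used and above both on the annotated strand.

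Further inhibitors of coagulation and fibrinolysis were high in liver. Serpind1, or heparin cofactor II, had 67.5 FPKM in liver, 0.676 in cortex, 0.658 in VAT, 0.342 in kidney, 0.231 in BAT, 0.222 in SCAT and 0.0743 in muscle (log2 difference 6.44). Serpina10, which inhibits factor Xa together with protein Z, had 36.5 FPKM in liver, 1.36 in SCAT, 0.385 in VAT, 0.236 in cortex, 0.105 in kidney, 0.0114 in BAT and 0 in muscle (4.65). Both were thus almost restricted to liver by level. Serpinf2 (chr11:75431732-75439591), or alpha-2 antiplasmin, the main inhibitor of plasmin, had 196 FPKM in liver, 49.5 in kidney, 1.41 in VAT, 0.128 in muscle, 0.0734 in cortex, 0.0326 in SCAT and 0 in BAT. Its log2 difference of 1.98 between liver and kidney lay just below the rule, so that it was enriched in neither tissue. The locus of Serpinf2 (chr11:75431732-75825241) also spans Doc2b and Wdr81 on the same strand, and that of Serpind1 spans Snap29 and Tmem191c. Neither locus carries these names, and both also span coding genes on the opposite strand.

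Serpinf1 and Serping1 differed from these genes by their levels outside the liver. Serpinf1 (chr11:75409769-75422701), which lies next to Serpinf2 and encodes pigment epithelium-derived factor, a secreted non-inhibitory serpin, had 196 FPKM in liver. It also had 29.3 FPKM in VAT, 24.7 in muscle, 20.9 in SCAT, 12.8 in BAT, 1.91 in cortex and 0.700 in kidney. Serping1, the C1 inhibitor that restrains complement and kallikrein, had 129.6 FPKM in liver, 27.5 in VAT, 20.9 in muscle, 18.1 in SCAT, 8.03 in BAT, 6.50 in kidney and 0.566 in cortex. Both had VAT, muscle and SCAT in the same order below liver, and their log2 differences over VAT, 2.74 and 2.23, were among the narrowest of the enriched members. With the libraries scaled by the median of ratios, the difference of Serping1 was 1.73 and its liver call was lost. The neighbours Serpinf1 and Serpinf2 had equal rounded levels in liver but different second tissues.

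Serpina3n, a secreted relative of alpha-1 antichymotrypsin that is known as an acute phase gene, had 57.5 FPKM in liver, 9.63 in VAT, 6.86 in SCAT, 2.07 in cortex, 1.43 in muscle, 1.11 in BAT and 0.125 in kidney (log2 difference 2.56). The locus shared by its neighbours Serpina3k and Serpina3m was listed at 2250 FPKM in liver and 13.0 in VAT, with 0.669 or less elsewhere. That liver value would be the highest of any serpin, but it belongs to a failed estimate and was not used. Serpina3h, a transcribed pseudogene in the annotation, was enriched in liver at 1.57 FPKM, with 0.270 in SCAT and at most 0.126 elsewhere (2.17). This call was lost with an offset of 1 (1.01), median of ratios scaling (1.72), summed loci (1.42) and a minimum of 5 FPKM.

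The hormone carriers were restricted to liver and, at low levels, VAT and kidney. Serpina6, or corticosteroid-binding globulin, had 32.2 FPKM in liver and 0.454 in VAT, and its remaining 5 values were 0 (log2 difference 5.87). Serpina7, or thyroxine-binding globulin (chrX:139079257-139085236), had 21.02 FPKM in liver, 1.22 in VAT and 0.0977 in kidney, with 0 in cortex, SCAT, BAT and muscle (3.998). This is the locus on the opposite strand, and that on the annotated strand had 11.8 FPKM in liver. Serpina7 was the only member outside the autosomes. The locus of Serpina11 and Serpina9 had 22.2 FPKM in liver, 0.150 in VAT, 0.0285 in kidney, 0.0173 in cortex and 0.0128 in SCAT, and 0 in BAT and muscle (6.47). The 2 names cannot be told apart in it.

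Serpina12 encodes vaspin, which was described as an adipokine of visceral fat. In these libraries it was a liver gene, with 82.0 FPKM in liver, 1.03 in VAT, 0.139 in SCAT and 0 in kidney, cortex, BAT and muscle (log2 difference 6.18). Its value was taken from the locus opposite to the annotated strand. On the annotated strand, liver was also highest, with 6.33 FPKM, and VAT had 0.0917.

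The low values of liver serpins in other tissues were compared with those of hepatocyte markers by dividing each by the liver FPKM. The 5 hepatocyte markers with a liver value stood in VAT at 0.559% (Fgb) to 2.29% (Tat) of their liver level, with a median of 0.684%. The 14 liver-enriched serpins and Serpinf2 had a median of 1.05% there. Serpina1e (0.461%), Serpinc1 (0.544%), Serpina1a (0.602%), Serpina9 and Serpina11 (0.679%), Serpinf2 (0.722%), Serpind1 (0.975%), Serpina10 (1.05%), Serpina12 (1.26%) and Serpina6 (1.41%) lay at or near the range of the markers. Serpina7 (5.81%), Serpina3h (8.08%), Serpinf1 (15.0%), Serpina3n (16.8%) and Serping1 (21.2%) lay above it.

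In SCAT and muscle the hepatocyte markers were at no more than 0.0241% and 0.0654% of liver. Serping1 had 14.0% in SCAT and 16.2% in muscle, and Serpinf1 10.7% and 12.6%. Serpina3h had 17.3% in SCAT and 2.79% in muscle, and Serpina3n 11.9% and 2.49%. Serpina10 had 3.71% of its liver level in SCAT, more than in VAT, and 0 in muscle. Also above the markers in SCAT and muscle were Serpinc1 (0.452% and 0.331%) and Serpind1 (0.330% and 0.110%). In SCAT but not in muscle, so were Serpina1e (0.179%), Serpina12 (0.169%), and Serpina9 and Serpina11 (0.0577%). Serpinf2 had 0.0167% and 0.0655%, and Serpina1a, Serpina6 and Serpina7 were above the markers in neither. In kidney the markers lay between 0.0122% and 0.340%, and Serpinf2 had 25.3% of its liver level. Serping1 had 5.01%, Serpind1 0.506%, Serpina7 0.465%, Serpinf1 0.357% and Serpinc1 0.348% in kidney. The other liver-enriched serpins, apart from Serpina1a, had at most 0.288% (Serpina10). Serpina1a had 0.608% there while Serpina1e had 0.0380%.

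**Figure D2:**
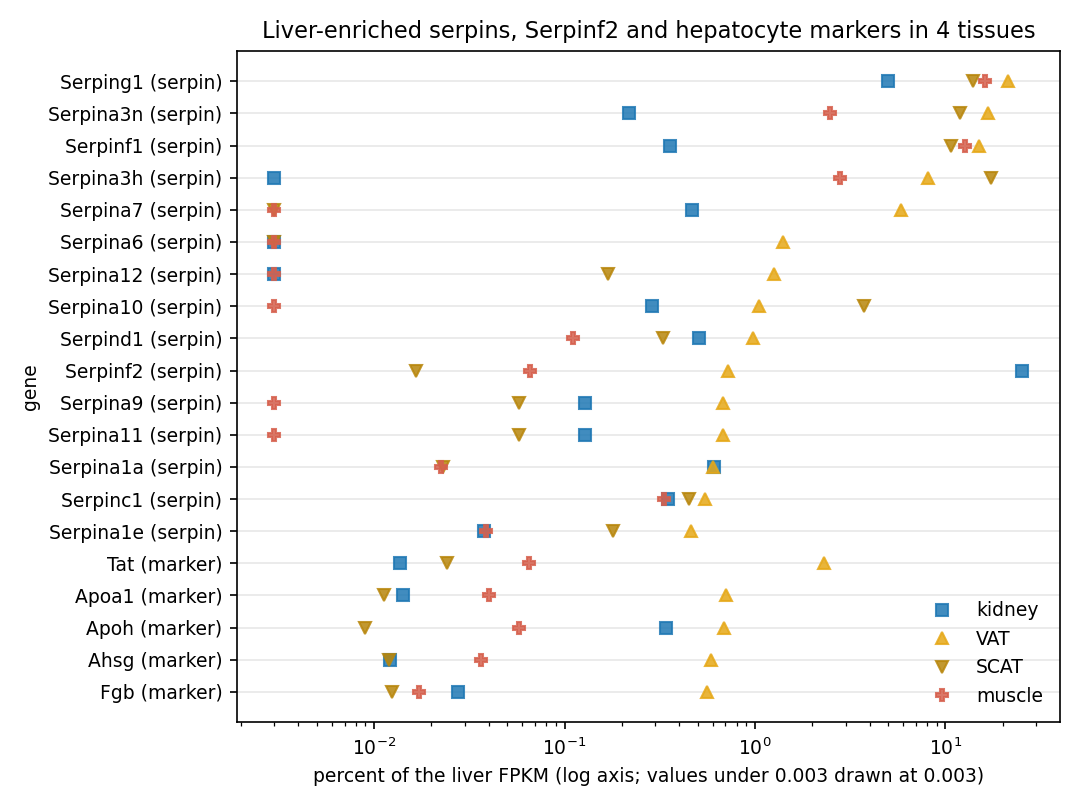
FPKM in kidney, VAT, SCAT and muscle as a percentage of the FPKM in liver (log axis), for the 14 liver-enriched serpins, Serpinf2 and 5 hepatocyte markers. Values under 0.003% are drawn at 0.003%. The triangles of VAT lie close to 1% for the markers and most serpins, while Serping1, Serpina3n and Serpinf1 lie above 10% in both VAT and SCAT and Serpinf2 lies at 25.3% in kidney.

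For 3 of the alpha-1 antitrypsin copies no liver value could be used. Serpina1b, Serpina1c and Serpina1d were listed at 0 with the status LOWDATA in all comparisons with liver, and so was Alb, and these zeros were treated as missing. Outside the liver, Serpina1b had 50.6 FPKM in VAT, 14.3 in kidney, 7.66 in SCAT, 2.40 in muscle, 0.827 in BAT and 0.590 in cortex. Serpina1d was highest in kidney, with 17.8 FPKM, against 6.25 in VAT, 0.352 in muscle, 0.251 in SCAT, 0.117 in cortex and 0.0449 in BAT. Serpina1c had 9.79 FPKM in VAT, 0.792 in SCAT, 0.713 in kidney, 0.414 in muscle, 0.149 in BAT and 0.106 in cortex. Serpina1c met the rule for VAT (log2 difference 3.47 over SCAT) without a liver value, and this call can therefore not be read as a preference of VAT over liver.

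The order of the copies differed between tissues. In kidney, the levels were 17.8 FPKM for Serpina1d, 14.3 for Serpina1b, 10.4 for Serpina1a, 0.713 for Serpina1c and 0.494 for Serpina1e. In VAT they were 50.6 for Serpina1b, 10.3 for Serpina1a, 9.79 for Serpina1c, 6.25 for Serpina1d and 6.00 for Serpina1e. These values come from the locus opposite to the annotated strand for Serpina1a, Serpina1b and Serpina1e. On the annotated strand the order in VAT was Serpina1c (9.79 FPKM), Serpina1b (9.38), Serpina1d (6.25), Serpina1a (4.77) and Serpina1e (3.43), so the lead of Serpina1b was lost, while Serpina1d stayed highest in kidney, with Serpina1a next at 3.90. How reads were divided among the copies limits such orders. Of the windows of 101 bases, the length of 1 read, in the coding sequence of Serpina1c, 61.6% occurred without a mismatch in another member, as did 57.6% in Serpina1a, 29.6% in Serpina1d, 27.8% in Serpina1b and 18.9% in Serpina1e. Among the 62 members with a coding sequence, 47 had no such window, Serpina1f, Serpinc1 and Serpinb6a among them.

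Serpina1f and its neighbour Serpina16 were high in VAT and at or near 0 in liver. Serpina1f (chr12:103688044-103695529) had 62.6 FPKM in VAT and 31.1 in kidney, but 0.0322 in liver, 0.0378 in cortex, 0.00596 in SCAT and 0 in BAT and muscle. It was thus among the 3 highest serpins of both VAT and kidney, with a log2 difference of 1.007 between them. Serpina1b, on its other side, was likewise highest in VAT and next in kidney, but has no liver value. Serpina16 (chr12:103668808-103676139), the next gene of the cluster, had 37.1 FPKM in VAT, 0.0104 in SCAT, 0.00631 in cortex and 0 in the other 4 tissues. Its log2 difference of 8.40 was the largest of all members. Of the epididymal markers, Crisp1, Lcn5 and Adam7 were likewise at least 134 FPKM in VAT, and in kidney all 5 were at most 0.0192 FPKM. Serpina16 thus stood high only in the library with these markers, whereas Serpina1f was also high in kidney, where they were at or near 0.

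Serpinb5, or maspin, a clade B serpin of epithelia, was the third member enriched in VAT. It had 1.52 FPKM in VAT, 0.138 in cortex, 0.0916 in kidney and 0 in liver, SCAT, BAT and muscle (log2 difference 2.77). This call was lost with an offset of 1, where the difference was 1.15, and with a minimum of 5 FPKM. Serpinb12, another epithelial member, stayed below 1 FPKM, with 0.762 in VAT, 0.00966 in SCAT and 0 elsewhere. The other 4 epithelial members, Serpinb3a, Serpinb7, Serpinb11 and Serpinb13, had at most 0.0505 FPKM in any tissue. The keratins Krt5 and Krt14 of stratified and basal epithelium stood at 2.48 and 2.58 FPKM in VAT and at no more than 0.236 FPKM elsewhere, whereas Krt10 was highest in kidney (1.93 FPKM, against 0.726 in VAT) and the locus of Dsg3, shared with B4galt6, was enriched in cortex. Of the mesothelial markers, Krt19 and Upk3b were enriched in VAT, Wt1 was not (1.82 FPKM in VAT and 1.63 in kidney), and the locus of Msln, shared with Rpusd1, was enriched in cortex. Their part in the values of Serpinb5 was not tested.

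Inhibitors of plasminogen activators and coagulation in tissues included a gene of muscle and cortex. Serpine2, or protease nexin 1, an inhibitor of thrombin and plasminogen activators on cell surfaces, had 44.3 FPKM in muscle and 28.7 in cortex, then 9.14 in VAT, 6.45 in SCAT, 5.78 in liver, 5.57 in kidney and 5.05 in BAT. The log2 difference of muscle over cortex was 0.63 and became -0.09 under median of ratios scaling, so the order of the pair depends on the scaling. Without cortex, Serpine2 would have met the rule for muscle. Serpinb2, or plasminogen activator inhibitor 2, shares its locus with Serpinb10 and reached no more than 0.422 FPKM, in BAT, and Serpina5, the protein C inhibitor, no more than 0.211 FPKM, in VAT.

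Serpini1 was the serpin enriched in cortex. It encodes neuroserpin, which neurons secrete and which inhibits tissue plasminogen activator. Serpini1 (chr3:75557547-75643495) had 65.0 FPKM in cortex, 1.05 in SCAT, 0.824 in BAT, 0.774 in kidney, 0.678 in muscle, 0.296 in VAT and 0.208 in liver, a log2 difference of 5.82. Gm29133 shares this locus. Its target Plat was at 9.45 FPKM in cortex, 17.4 in kidney, 6.72 in VAT and 0.210 in liver, so the protease was not limited to cortex as the inhibitor was. Serpini2, the neighbour of Serpini1 and known from pancreas, had at most 0.329 FPKM, in SCAT, the library with the pancreatic markers.

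Serpinb6a was the serpin enriched in muscle and was found in every tissue. It is an intracellular inhibitor of cathepsin G and other trypsin-like and chymotrypsin-like proteases. Serpinb6a (chr13:33917918-34002794) had 398 FPKM in muscle, 69.4 in VAT, 45.4 in BAT, 36.3 in SCAT, 34.7 in liver, 21.5 in kidney and 16.8 in cortex. It was the highest serpin of VAT, SCAT, BAT and muscle and stood among the 3 highest of kidney and cortex. The log2 difference between muscle and VAT was 2.52. Scaling the libraries by the median of ratios over 8016 genes, which shifts muscle by -0.39 and VAT by 0.42 on the log2 scale, lowered it to 1.71 and ended this call. BAT also held muscle markers (Ckm at 166 FPKM), and their part in its Serpinb6a level was not tested.

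Of the serpins with at least 1 FPKM, Serpinh1 was the only one that was highest in BAT. Its product, HSP47, is a chaperone of collagen in the endoplasmic reticulum and inhibits no protease. Serpinh1 (chr7:99345376-99353239) had 33.7 FPKM in BAT, 15.2 in VAT, 8.58 in muscle, 7.61 in kidney, 6.32 in SCAT, 1.56 in liver and 0.922 in cortex, and its log2 difference of 1.14 over VAT was below the rule. Median of ratios scaling shifts BAT by -0.27 and VAT by 0.42 on the log2 scale, which narrows this difference. Of 5 collagen genes with a value, 0 were highest in BAT. Col1a1 had 17.9 FPKM in muscle and 3.90 in BAT and Col3a1 89.8 and 35.8, whereas the basement membrane collagen gene Col4a1 had 59.6 FPKM in VAT and 57.4 in BAT.

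SCAT held the highest levels of 4 serpins with at least 1 FPKM, and 3 of them were clade B inhibitors of leukocyte granule proteases. Serpinb1a, the inhibitor of neutrophil elastase and cathepsin G, had 14.5 FPKM in SCAT, 4.51 in muscle, 3.58 in liver, 3.402 in kidney, 2.68 in cortex, 2.33 in VAT and 1.31 in BAT (log2 difference 1.67). Serpinb6b had 7.90 FPKM in SCAT, 4.54 in VAT, 2.04 in kidney, 1.90 in liver, 1.19 in BAT, 0.535 in muscle and 0.310 in cortex (0.79). Neither met the rule in SCAT. Serpinb9, which protects lymphocytes from granzyme B, had 3.43 FPKM in SCAT and 3.34 in VAT, 2.08 in kidney, 1.63 in BAT, 1.39 in liver, 0.967 in cortex and 0.890 in muscle, a log2 difference of 0.04. Serpina3g, an intracellular member of the antichymotrypsin group known from activated lymphocytes, had 5.73 FPKM in SCAT, 2.24 in liver, 0.624 in cortex, 0.606 in VAT, 0.433 in kidney, 0.107 in BAT and 0 in muscle (1.31).

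Lymphocyte markers were also highest in SCAT. In SCAT, Ms4a1 had 50.6 FPKM, Cd79a 35.6 and Cd3e 3.396, and in the other tissues none of these exceeded 1.61 FPKM. Gzmb was highest in SCAT as well, at 1.42 FPKM, and so was Gzma, at 2.80. Of 4 mast cell markers, Mcpt4 (21.9 FPKM, enriched in SCAT), Cpa3 (15.0) and Tpsb2 (6.19) were also highest in SCAT, while Kit was highest in cortex. Of 4 neutrophil markers, S100a9 (4.21 FPKM) and Mpo (0.223) were highest in SCAT and S100a8 in VAT (10.2), and Ly6g was listed at 0 in all 7 tissues. Whether the serpins and the markers come from the same cells was not tested. Serpinb8, an inhibitor of furin and related proteases, showed no such pattern, with 2.17 FPKM in liver, 1.97 in VAT, 1.79 in kidney, 1.51 in muscle, 1.27 in SCAT, 1.11 in cortex and 1.09 in BAT, and its log2 difference of liver over VAT was 0.13, or -0.35 under median of ratios scaling. Serpine3 was equally even, between 1.44 and 2.42 FPKM, but its locus overlaps Ints6 on the opposite strand.

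Serpina3c was a further member with a maximum above 1 FPKM. It had 5.41 FPKM in VAT, 2.09 in SCAT, 0.724 in muscle, 0.510 in BAT, 0.0404 in cortex, 0.0285 in liver and 0.00886 in kidney. It thus reached 1 FPKM in VAT and SCAT but not in liver, where 9 genes of its cluster were enriched.

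The clades differed in how many of their members were found at all. In clade A, 17 of 23 analysed members reached 1 FPKM in any tissue, a share near the 69.9% of protein-coding names, and 0 were listed at 0 throughout. In clade B, 6 of 27 did, a smaller share than that background, and 9 were listed at 0 in all 7 tissues (Serpinb3a, Serpinb3b, Serpinb3c, Serpinb3d, Serpinb6d, Serpinb6e, Serpinb9e, Serpinb9f and Serpinb9g). These 9 are 14.8% of the 61 members, against 8.63% of protein-coding names at 0 throughout. A further 19 members lay above 0 but under 1 FPKM in every tissue, with maxima from 0.00789 FPKM for Serpinb13 in VAT to 0.762 for Serpinb12 in VAT. Among them, Serpina3f had 0.749 FPKM in liver and 0.620 in SCAT, Serpinb1b 0.724 in cortex and Serpinb1c 0.327 in muscle. The 6 clade B members above 1 FPKM were Serpinb1a, Serpinb5, Serpinb6a, Serpinb6b, Serpinb8 and Serpinb9. Each of the single members of clades C, D, G and H, the 3 of clade E and the 2 of clade F reached 1 FPKM, and of clade I only Serpini1 did. In clades E and H, 0 members were enriched.

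The members were also counted by their place on the chromosomes. With less than 1 Mb between neighbours, 55 of the 63 genes fell into 5 clusters and 8 stood alone. The cluster on chromosome 12 (chr12:103614786-104414329, 24 genes) spans 799.5 kb from Serpina10 to Serpina3n. Of its 22 analysed genes, 16 reached 1 FPKM, near the share of protein-coding names (69.9%), and 9 were enriched in liver and 2 in VAT (protein-coding names: 2.37% and 0.848%). The cluster on chromosome 13 (chr13:32842092-34002794, 15 genes) had 4 genes that reached 1 FPKM, of which 3 were highest in SCAT and Serpinb6a in muscle, and 5 genes at 0 throughout. The cluster on chromosome 1 (chr1:106861173-107610484, 12 genes) had 2, Serpinb5 and Serpinb8, and 4 genes at 0 throughout. The remaining pairs were Serpinf1 with Serpinf2 on chromosome 11 and Serpini2 with Serpini1 on chromosome 3.

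Within the chromosome 12 cluster, genes with different patterns alternated. Serpina10 and Serpina6 at its start were liver genes, Serpina16 and Serpina1f had almost no liver signal, the alpha-1 antitrypsin copies followed, and Serpina11, Serpina9 and Serpina12 were again liver genes. Serpina5, Serpina3a and Serpina3b had at most 0.211 FPKM in any tissue. In the group from Serpina3c to Serpina3n, the highest tissue changed from VAT (Serpina3c) to SCAT (Serpina3g) and liver (Serpina3h and Serpina3n), and Serpina3f, Serpina3i and Serpina3j stayed below 1 FPKM.

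**Figure D3:**
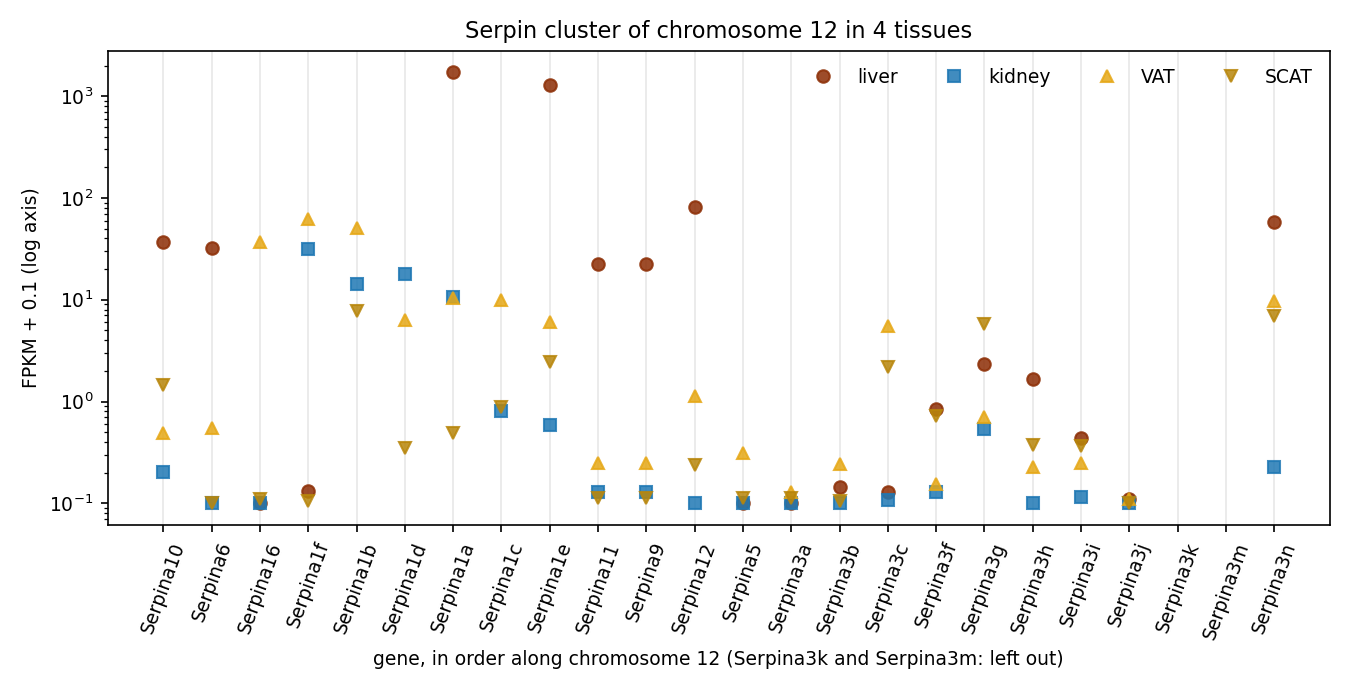
FPKM + 0.1 (log axis) of the 24 genes of the chromosome 12 cluster in liver, kidney, VAT and SCAT, with the genes in their order along the chromosome. Serpina3k and Serpina3m were left out, and Serpina1b, Serpina1d and Serpina1c have no liver point. Serpina1a and Serpina1e stand at 1717 and 1301 FPKM in liver, from their opposite-strand loci, and Serpina16 and Serpina1f have their highest points in VAT with liver at the bottom of the axis.

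The summed level of the family set liver apart. Counting each locus once, the serpins summed to 4771 FPKM in liver, without Serpina1b to Serpina1d, Serpina3k and Serpina3m. The sums were 524 FPKM in muscle, 396 in VAT, 183 in kidney, 164 in SCAT, 130.3 in cortex and 123 in BAT. Serpina1a (36.0%), Serpina1e (27.3%) and Serpinc1 (17.9%) made up 81.1% of the liver sum. Both copies enter with their opposite-strand loci. With loci on the annotated strand alone, chosen after seeing the data, the liver sum was 3062 FPKM, and Serpinc1 (27.8%), Serpina1e (27.6%) and Serpina1a (18.3%) made up 73.8% of it. In muscle, Serpinb6a alone made up 75.9% and Serpine2 8.45%, and in cortex Serpini1 made up 49.9% and Serpine2 22.0%.

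Kidney, VAT and SCAT had more mixed sums, with 55.8%, 46.1% and 46.0% in their 3 leading members. In BAT the 3 leading members made up 74.7%, against 81.1% in liver, and on the annotated strand alone 75.6% against 73.8%. In kidney, Serpinf2 contributed 27.1%, Serpina1f 17.0% and Serpinb6a 11.7%. In VAT, Serpinb6a contributed 17.5%, Serpina1f 15.8% and Serpina1b 12.8%. On the annotated strand alone Serpina1b fell to 9.38 FPKM, and Serpina16 (10.8%) followed Serpinb6a (20.1%) and Serpina1f (18.2%). In SCAT the leading members were Serpinb6a (22.2%), Serpinf1 (12.8%) and Serping1 (11.1%), and in BAT Serpinb6a (36.9%), Serpinh1 (27.4%) and Serpinf1 (10.4%). Clade A made up 68.6% of the sum in liver, 51.1% in VAT and 41.4% in kidney, and 1.20% in muscle, and on the annotated strand alone 51.2%, 43.8%, 34.7% and 0.778%. Clade B made up 77.5% in muscle and 0.920% in liver, and on the annotated strand alone 77.8% and 1.43%.

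**Figure D4:**
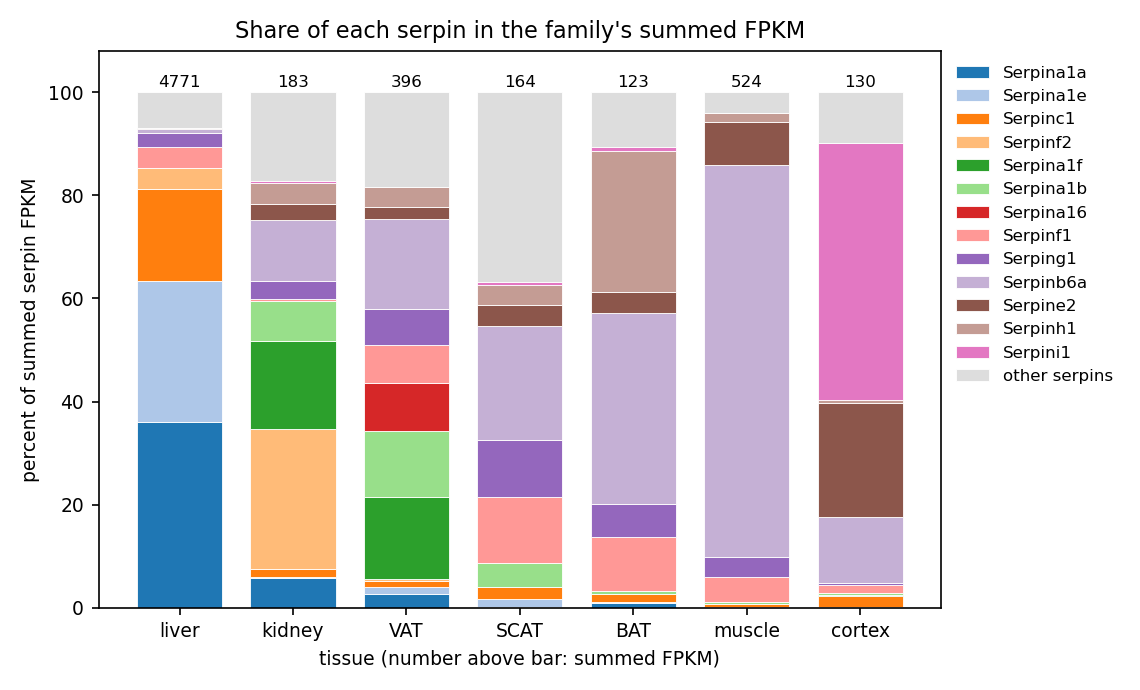
Share of the named serpins in the summed serpin FPKM of each tissue (percent, stacked to 100, from the loci with the higher maximum), with the sum in FPKM above each bar and all remaining members in grey. Serpina1a, Serpina1e and Serpinc1 fill most of the liver bar, Serpinb6a fills 75.9% of the muscle bar and Serpini1 49.9% of the cortex bar.

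Many serpins had a locus on each strand. The table has no strand column, so strand was inferred from how its loci are sorted. By this reading 26 of the 63 members (41.3%) have loci on both strands, as do 41.1% of protein-coding names, and for 12 of the 61 the locus opposite to the annotated strand was the higher one and was used. Of 21 members with at least 1 FPKM and a locus on each strand, 20 had the same highest tissue on both, the exception being Serpinb8. The ratio of the opposite to the annotated locus in the highest tissue ranged from 0.112 for Serpinf1 to 13.0 for Serpina12, with a median of 0.803, and it was above 1 for 7 members.

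The level of a member therefore depends on the locus, while its tissue mostly did not. Serpina1a had 1717 FPKM on the opposite strand and 561 on the annotated strand in liver, Serpina1e 1301 and 846, and Serpina7 21.02 and 11.8. Serpina1b had 50.6 and 9.38 FPKM in VAT. Serpina3h was the one liver call that was lost on the annotated strand, where it had 0.128 FPKM. Serpina3n had 57.5 and 47.6 FPKM and was enriched by either locus.

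**Figure D5:**
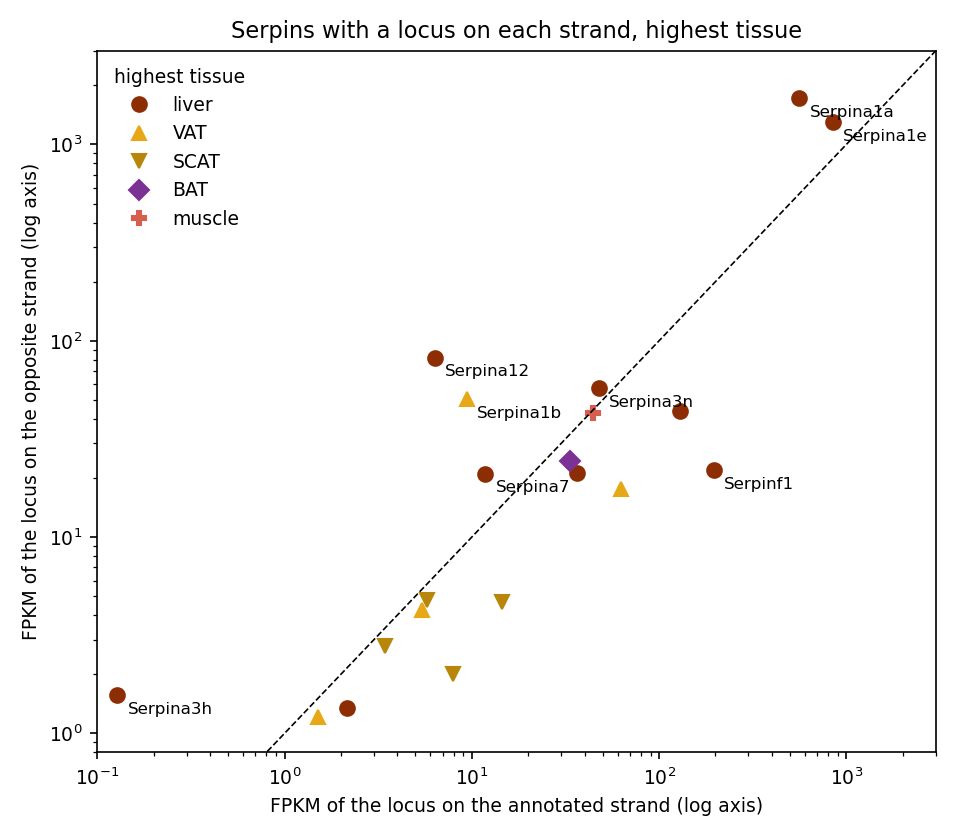
FPKM in the highest tissue on the annotated strand (horizontal, log axis) against that on the opposite strand (vertical, log axis) for 20 of the 21 serpins with a locus on each strand, with the strand inferred from the order of the loci. The dashed line marks equal values and the symbols the highest tissue. Serpina3h, Serpina12 and Serpina1b lie far above the line and Serpinf1 far below it.

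The proteases that plasma serpins act on, and the proteins that clear them, were mostly liver genes too. Of 24 such genes, 22 reached 1 FPKM in any tissue and 15 were enriched in liver (protein-coding names: 69.9% and 2.37%). Klkb1, Masp2 and C1ra among the 15 share their loci with other genes. The liver genes included F2 (prothrombin, 579.8 FPKM) and Plg (plasminogen, 409.9 FPKM), which encode the zymogens of the targets of Serpinc1 and Serpinf2. Vtn, or vitronectin, had 846 FPKM in liver. Plau, or urokinase, was enriched in kidney (113 FPKM), and Lrp8 in cortex (6.70 FPKM). The neutrophil proteases Elane and Ctsg had at most 0.269 and 0.365 FPKM, in SCAT, and Prtn3 shares its locus with Ptbp1. Agt had 58.3 FPKM in liver and 7.05 in VAT and would have been a further liver-enriched serpin (log2 difference 3.03).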

How the data were processed

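The labels name the strain C57BL/6 and the methods C57BL/6N. Total RNA of 7 tissues, with 1 library each, was depleted of rRNA, and directional libraries were sequenced. Per the labels and the paper's methods, the authors removed rRNA reads with Bowtie2 2.2.9, aligned reads to GRCm38 with STAR 2.6.0c and ran Cufflinks 2.2.1 and cuffdiff. The deposited table holds FPKM of 94339 loci in 21 comparisons. The authors' log2 ratio, score (test statistic), p-value and q-value columns were not used. Fragment counts are not given, so depth and precision are unknown.

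Members were all names that match the family rule, and for several loci the one with the highest maximum FPKM was used. Loci with FAIL were left out, and zeros with LOWDATA were taken as missing. Genes were called at 1 FPKM and a log2(FPKM + 0.1) of 2 above every other tissue, with at least 3 other values. The offset of 0.1 understates differences of low values. No test was possible. FPKM in all tissues is given for members with at least 1 FPKM that were enriched, among the 3 highest of a tissue or in a list of roles. Of the genes these rules name, 2 are not reported here. Other genes were named by fixed marker and protease lists. The members and lists were chosen with earlier results of these data known. Strand was inferred from the order of the loci (75.3% of 61996 locus and name pairs lie on the annotated strand). Coordinates of genes are from GENCODE for GRCm38, which held all 63 names, and coordinates of promoters from RefSeq. Alternatives covered the offset, minimum, fold, scaling, loci, status and each library. Python 3.11.15, pandas 2.3.3, NumPy 2.4.6, Biopython 1.88 and matplotlib 3.10.9 were used.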

Additional observations from a re-analysis of the deposited data

How the results depend on the processing

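With 1 library per tissue, no value has a replicate check, depth is unknown and near-identical copies share reads. No paired analysis was possible because the study has no replicates. The count of liver-enriched serpins lay between 10 and 16 over 20 alternatives. That of serpins at or above the minimum lay between 28 and 45 over 21, with 45 at a minimum of 0.1 FPKM. With the minimum kept at 1 FPKM it lay between 28 and 35. All these counts were within 1.5 times of 14 and 33. Of 130 recomputed log2 differences of the 19 enriched serpins, 123 stayed at 2 or more and 0 were reversed. The differences under 2 were those of Serpina3h in 4 alternatives, Serpinb5 with an offset of 1, and Serpinb6a and Serping1 with median of ratios scaling. A minimum of 5 FPKM also ended the calls of Serpina3h and Serpinb5, an 8-fold rule those of Serpina3h, Serpina3n, Serpinf1, Serping1, Serpinb5 and Serpinb6a, and only loci with 1 name those of Serpina9, Serpina11 and Serpini1. Of the members that were not enriched, Serpine2 (muscle over cortex) and Serpinb8 (liver over VAT) changed sign under that scaling. Counts of the other tissues moved by more than 1.5 times as follows. A 2-fold rule gave 1 in kidney (Serpina1d), 6 in VAT, 2 in SCAT (Serpina3g, Serpinb1a) and 1 in BAT (Serpinh1), and an 8-fold rule 0 in muscle. Median of ratios scaling gave 5 in VAT, 1 in SCAT (Serpinb1a) and 0 in muscle, and summing the loci of a name 5 in VAT. The scaling shifted VAT by 0.42, SCAT by 0.49, cortex by 0.19, BAT by -0.27 and muscle by -0.39 on the log2 scale. Only loci with 1 name gave 0 in cortex, since Serpini1 shares its locus. Without the liver library the counts were 1 in kidney (Serpinf2), 5 in VAT and 1 in SCAT (Serpina3g). They were 6 in VAT without kidney, 2 in kidney without VAT (Serpina1d, Serpina1f) and 2 in muscle without cortex (Serpinb6a, Serpine2). Chosen after seeing the data, the annotated strand alone gave 13 in liver, and leaving out members with a missing value gave 2 in VAT.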
